A study of Mus musculus with 12 samples.

Results

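The neutrophil granule genes were followed in RNA sequencing of macrophages sorted from mouse bone marrow. The members are 10 genes, chosen by symbol from the 18467 genes of the count table: 4 primary granule genes (Mpo, Elane, Prtn3 and Ctsg) and 6 later granule and cytosol genes (Ltf, Camp, Ngp, Lcn2, S100a8 and S100a9). All 10 passed the filter on low counts, which left 12882 genes for testing. The study took 12 libraries, 3 from different mice in each of 4 groups. Mice of the metastatic groups were female Albino B6, an albino C57BL/6 strain, and had received E0771 breast cancer cells, an established mouse mammary tumour line, into the caudal artery at 8 weeks of age and carried bone metastases. Healthy control mice gave the normal marrow, and the labels do not give their age, sex or strain separately. General macrophages were sorted as CD11b+F4/80+ cells, and niche macrophages as VCAM1+CD163+CCR3+ cells, from the femur and tibia after lysis of red cells. The groups are called general-normal, general-metastatic, niche-normal and niche-metastatic here. Replicates carry the numbers 1 to 3 of their labels, except in the niche-normal group, where column names and titles disagree and the libraries are called A, B and C.

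Neutrophils fill their granules in a fixed order while they mature in the marrow. Promyelocytes make the primary, or azurophil, granules, which hold myeloperoxidase and serine proteases. Myelocytes and later stages stop that program and fill secondary and tertiary granules with lactoferrin, cathelicidin and other proteins, while calprotectin accumulates in the cytosol. The ratio of primary to later transcripts therefore differs between young and mature granulocytes. Macrophages are not known as a main source of either class, although monocytes express S100a8 and S100a9 as well.

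The libraries held 13687945 to 30332417 counts, so 3 counts corresponded to 0.109 to 0.243 CPM. CPM is the usual count of a gene relative to its library's total, scaled with edgeR's TMM factors. The sorting antigens followed the sorts in part. Vcam1, at 47.6 to 92.5 CPM in the 6 general libraries and 938 to 2248 CPM in the 6 niche libraries, did not overlap between the sorts, and neither did Cd163 or Ccr3. Itgam, which encodes CD11b, was at 503 to 852 CPM in general and 328 to 567 CPM in niche libraries. Adgre1, which encodes F4/80, did not mark the general sort: its level was 64.0 to 145 CPM in general and 144 to 589 CPM in niche libraries. The 12 macrophage markers, the sorting antigens Adgre1, Vcam1 and Cd163 included, summed to 322 to 489 CPM in general and 2546 to 7740 CPM in niche libraries, and none was at 0 in all libraries of a group. In comparison, the 6 later members summed to 13507 to 22623 CPM in general and 9165 to 11774 CPM in niche libraries. The 4 primary members summed to 757 to 1263 CPM in general and 983 to 1826 CPM in niche libraries. As a share of all raw counts, the 10 genes took 1.31 to 2.52% in general and 0.914 to 1.52% in niche libraries. In bulk RNA, fewer cells of a type and less RNA per cell cannot be told apart.

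The promoter windows of 6 members are shown because the 4 later genes called in normal marrow are to be set against Mpo and Elane, the most abundant primary pair per kb. The sequences are from RefSeq, build GRCm38.p6, read 5′ to 3′ on the strand of the gene, and reach from 250 bases before the start to 50 bases after it. Capitals mark GAGGAA, a core bound by PU.1-type factors, and TTNNGNAA, a C/EBP-type core, each on either strand. The Camp window is chr9:109849407-109849706 (minus strand), Ngp is chr9:110419558-110419857 (plus strand), S100a8 is chr3:90668821-90669120 (plus strand) and S100a9 is chr3:90695672-90695971 (minus strand). The Mpo window is chr11:87793534-87793833 and the Elane window chr10:79886062-79886361, both on the plus strand.
Camp: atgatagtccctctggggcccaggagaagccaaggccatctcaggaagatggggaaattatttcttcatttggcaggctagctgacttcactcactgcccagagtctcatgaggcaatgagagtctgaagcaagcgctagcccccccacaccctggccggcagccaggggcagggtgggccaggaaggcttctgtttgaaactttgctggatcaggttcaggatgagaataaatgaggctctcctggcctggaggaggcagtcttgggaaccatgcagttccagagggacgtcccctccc
Ngp: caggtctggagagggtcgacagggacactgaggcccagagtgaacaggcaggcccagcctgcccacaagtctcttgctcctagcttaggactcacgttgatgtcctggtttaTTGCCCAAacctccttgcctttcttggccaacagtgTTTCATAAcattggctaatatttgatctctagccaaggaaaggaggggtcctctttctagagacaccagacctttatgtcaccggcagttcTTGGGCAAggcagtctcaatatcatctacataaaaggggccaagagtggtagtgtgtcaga
S100a8: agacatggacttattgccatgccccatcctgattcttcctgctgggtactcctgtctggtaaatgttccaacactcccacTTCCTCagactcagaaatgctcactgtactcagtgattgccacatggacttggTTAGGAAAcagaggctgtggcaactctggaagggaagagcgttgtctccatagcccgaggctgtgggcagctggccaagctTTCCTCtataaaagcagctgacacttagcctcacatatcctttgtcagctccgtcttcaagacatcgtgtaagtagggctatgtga
S100a9: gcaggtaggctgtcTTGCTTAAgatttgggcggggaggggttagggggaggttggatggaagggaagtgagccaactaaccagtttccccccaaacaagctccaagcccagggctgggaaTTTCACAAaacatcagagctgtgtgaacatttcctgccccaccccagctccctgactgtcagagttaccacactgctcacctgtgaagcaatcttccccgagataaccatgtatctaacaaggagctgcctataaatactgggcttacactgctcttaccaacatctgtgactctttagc
Mpo: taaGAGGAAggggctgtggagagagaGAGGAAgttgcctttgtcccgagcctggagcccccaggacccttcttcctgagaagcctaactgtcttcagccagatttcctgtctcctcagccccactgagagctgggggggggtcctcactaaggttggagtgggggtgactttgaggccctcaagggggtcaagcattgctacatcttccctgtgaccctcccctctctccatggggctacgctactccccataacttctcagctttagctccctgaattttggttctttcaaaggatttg
Elane: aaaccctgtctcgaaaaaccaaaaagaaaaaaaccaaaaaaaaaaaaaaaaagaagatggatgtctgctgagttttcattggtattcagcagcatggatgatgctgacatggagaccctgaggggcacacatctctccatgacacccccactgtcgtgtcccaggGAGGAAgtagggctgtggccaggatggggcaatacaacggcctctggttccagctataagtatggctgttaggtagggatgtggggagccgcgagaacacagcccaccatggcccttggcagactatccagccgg

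Each of the 10 genes matched 1 window of the promoter table. GAGGAA was found in the windows of 4 of 4 primary and 3 of 6 later genes, against 28.3% of all 32851 windows. On the gene strand alone it was present in 4 primary and 0 later windows, against 15.6% of all windows, whereas TTNNGNAA on the gene strand was present in 0 primary and 3 later windows, against 25.4%. On either strand, TTNNGNAA was found in 0 of 4 primary and 5 of 6 later windows, all but that of Camp, against 40.7% of all windows. The patterns can overlap in principle, but none of their matches did in these windows. Of the other motifs searched, 5 in all, the MYB-type AACNG was present in every member's window and in 80.3% of all windows, the RUNX-type TGTGGT in 1 primary and 2 later windows (16.8% of all), and the GATA-type AGATAA in 0 primary and 2 later windows (11.2% of all). A match describes letters in the window and not a bound site.

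The members lie in few places of the genome (GENCODE M21, GRCm38). Prtn3 (chr10:79874476-79883174) and Elane (chr10:79886247-79888215) are neighbours on the plus strand, 3072 bases apart. S100a8 (chr3:90668978-90670035, plus) and S100a9 (chr3:90692632-90695721, minus) are separated by 22596 bases. Camp (chr9:109847379-109849617, minus), Ngp (chr9:110419747-110423012, plus) and Ltf (chr9:111019271-111042767, plus) fall within 1195 kb of chromosome 9. The others are Mpo (chr11:87793581-87804413, plus), Ctsg (chr14:56099881-56102574, minus) and Lcn2 (chr2:32384633-32388252, minus). The whole gene bodies, exons and introns, are given. Mpo overlaps the antisense gene Gm11505 and Prtn3 overlaps Plppr3 on the opposite strand, and whether counting used strand is not given in the sources used here, so reads of these pairs cannot be told apart. The deposited values were exactly whole, with no tolerance, in all 12 libraries for Elane, Camp and Ngp, and in 0 of 12 for Mpo.

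Set against gene length, the later genes were among the most abundant transcripts of all 4 groups. Among 12634 tested genes with a length, ranked by mean CPM per kb, Ngp (neutrophilic granule protein) held rank 19 to 23 and S100a8, 1 of the calprotectin subunits, rank 21 to 32, depending on the group. Camp ranked 40 to 88, Lcn2 46 to 64, S100a9 43 to 86 and Ltf 56 to 96. The primary genes stood lower, with Mpo at rank 119 to 236, Elane at 129 to 225, Prtn3 at 224 to 384 and Ctsg at 1648 to 3556. In general-normal libraries Ngp reached 7177 ± 142 CPM per kb (SD, n = 3), S100a8 4769 ± 671, Camp 1615 ± 18.2, Mpo 144 ± 26.6 and Ctsg 10.2 ± 4.56.

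**Figure D1:**
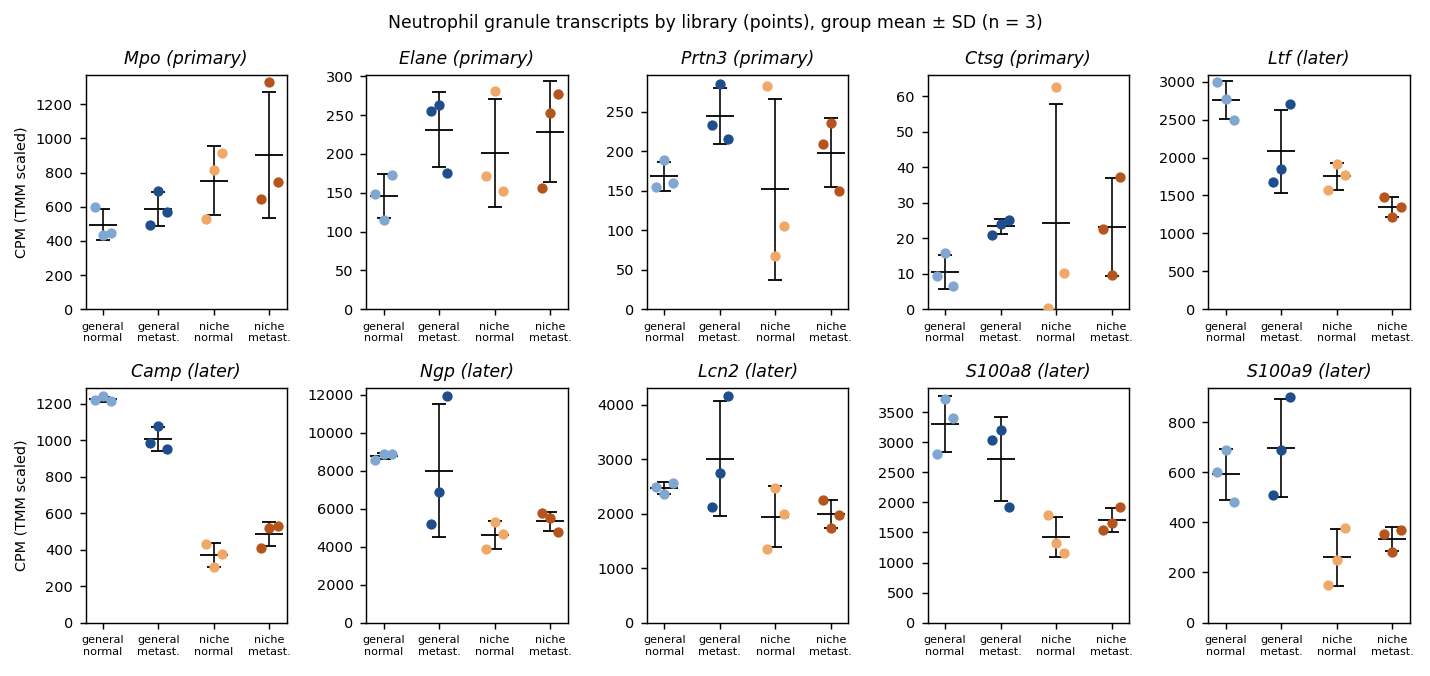
CPM (TMM scaled, linear axes from 0) of each of the 10 granule genes in the 12 libraries (points), with the mean and SD of each group (n = 3). Camp lies between 950.4 and 1240 in general and between 303 and 532 in niche libraries, while the points of the primary genes overlap between the sorts; the lower SD bar of Ctsg in niche-normal libraries runs below the axis.

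Primary granule transcripts were not called different between niche and general macrophages. Mpo, the peroxidase that makes hypochlorous acid, measured 599, 436 and 447 CPM in general-normal replicates 1, 2 and 3, and 528, 815 and 916 CPM in niche-normal libraries A, B and C. In metastatic marrow it measured 493, 691 and 570.4 CPM in general and 644, 1328 and 745 CPM in niche libraries. The niche means were higher, but the groups overlapped in both kinds of marrow. The log2 fold change, niche over general, was 0.61 ± 0.28 (SE, unadjusted p = 0.0451, edgeR adjusted p = 0.258) in normal and 0.63 ± 0.28 (unadjusted p = 0.0385, edgeR adjusted p = 0.554) in metastatic marrow. The 95% intervals, 0.0146 to 1.20 and 0.0369 to 1.22, lay just above 0 before adjustment over all genes.

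Elane, which encodes neutrophil elastase, measured 149, 115 and 173 CPM in general-normal and 172, 281 and 152 CPM in niche-normal libraries. Its values in metastatic marrow were 255, 263 and 175 CPM in general and 156, 253 and 278 CPM in niche libraries. Both pairs of groups overlapped, with log2 fold changes of 0.47 (95% interval -0.22 to 1.16) in normal and -0.02 (-0.70 to 0.67) in metastatic marrow. Prtn3, which encodes proteinase 3, measured 155, 190 and 160.1 CPM in general-normal and 282, 67.9 and 106 CPM in niche-normal libraries. It stood at 233, 285 and 216 CPM in general-metastatic and at 209, 236 and 150.0 CPM in niche-metastatic libraries. The niche-normal libraries A and B gave the highest and lowest values of that gene among the 6 normal libraries. Its log2 fold change was -0.15 (95% interval -0.99 to 0.70) in normal and -0.30 (-1.15 to 0.54) in metastatic marrow.

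Ctsg, which encodes cathepsin G, was the least abundant member. It measured 9.27, 15.7 and 6.54 CPM in general-normal, and 0.243, 62.6 and 10.1 CPM in niche-normal libraries. The lowest of these values rested on 3 counts and the highest on 1259 counts, both within the niche-normal group. Metastatic marrow gave 21.1, 23.95 and 25.2 CPM in general and 22.7, 9.70 and 37.1 CPM in niche libraries. Its log2 fold change in normal marrow was 1.21 with a 95% interval from -1.72 to 4.14, so neither a rise nor a fall by several fold could be told from no change at this spread. Within the niche-normal group the neighbours Elane and Prtn3 also departed from each other: the ratio of Elane to Prtn3, each per kb, was 1.07 in library A, 7.27 in B and 2.52 in C, against 1.07 to 1.90 in general-normal libraries.

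Of the 6 later granule and cytosol genes, 4 fell in niche macrophages of normal marrow: Camp, Ngp, S100a8 and S100a9. Over all tested genes 2.47% were called in either direction, 0.97% lower and 1.5% higher. All 6 log2 fold changes were negative, with a median of -1.06, against 0.54 for the 4 primary genes, of which 0 were called, and 0.19 for all tested genes. The primary median was less settled than the later one: it ranged from 0.0489 (limma-voom with sample quality weights) to 0.56 over the alternatives of scaling, filter and tool, and was 0.18 without niche-normal library B, whereas the later median ranged from -1.22 to -0.997 over the same alternatives and from -1.09 to -0.85 without single libraries. In 5 of the 6 genes every niche-normal library lay below every general-normal library, which held for 8.78% of all tested genes. None of the 4 primary genes was separated in that way, in either direction (10% of all tested genes were separated with niche higher). By unadjusted p, 1 of the 4 primary and 5 of the 6 later genes were under 0.05, against 2443 of the 12882 tested genes.

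Camp, which encodes the cathelicidin antimicrobial peptide of secondary granules, changed most. Its level was 1219, 1240 and 1214 CPM in general-normal and 433, 303 and 374 CPM in niche-normal libraries. The general-normal values differed from each other by little, and the niche-normal values were all below 0.5 of them. Its log2 fold change was -1.73 ± 0.22 (SE), a 3.31-fold lower level (edgeR adjusted p = 9.04e-05). Camp was called under each alternative of scaling, filter and tool and without each single library.

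Ngp, a cystatin-related protein of secondary granules, measured 8571, 8881 and 8859 CPM in general-normal and 3857, 5288 and 4686 CPM in niche-normal libraries. The groups did not overlap, and the level was 1.90-fold lower (log2 fold change -0.93 ± 0.23, edgeR adjusted p = 0.0390). The Ngp call was lost without 5 of the 6 libraries in turn, all but B, with an adjusted p of up to 0.128 (edgeR, without A). It was also lost with library totals in place of TMM factors (edgeR adjusted p = 0.0782) and with limma-voom with sample quality weights (adjusted p = 0.919). Ltf, which encodes the iron-binding protein lactoferrin, measured 2994, 2772 and 2492 CPM in general-normal and 1572, 1918 and 1765 CPM in niche-normal libraries. These groups did not overlap either, but the log2 fold change of -0.65 ± 0.20 did not pass (edgeR adjusted p = 0.106). Ltf did pass with no filter on low counts, with at least 10 counts in every library and without small non-coding RNA genes (edgeR adjusted p = 0.0332 to 0.0457), and with DESeq2 (adjusted p = 0.00541). Lcn2, which encodes the siderophore-binding lipocalin 2, was at 2496, 2355 and 2569 CPM in general-normal and at 1353, 2475 and 1997 CPM in niche-normal libraries. It was the only later gene whose groups overlapped in this comparison, with library B within the general range (log2 fold change -0.35, 95% interval -0.86 to 0.16).

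Both calprotectin subunits, cytosolic proteins that can bind calcium, zinc and manganese, fell. S100a8 measured 2802, 3716 and 3412 CPM in general-normal and 1798, 1328 and 1157 CPM in niche-normal libraries, 2.32-fold lower (log2 fold change -1.21 ± 0.23, edgeR adjusted p = 0.00475). S100a9 measured 601, 689 and 483 CPM in general-normal and 151, 249.7 and 379 CPM in niche-normal libraries, 2.27-fold lower (log2 fold change -1.19 ± 0.31, edgeR adjusted p = 0.0450). Neither gene overlapped between the groups, though the S100a9 values of the niche group spread 2.52-fold. The S100a9 call was lost without 5 of the 6 libraries in turn, all but C, with an adjusted p of up to 0.186 (edgeR, without general-normal replicate 2). The call was also lost with library totals (edgeR adjusted p = 0.0782), with only the libraries compared in the fit (0.0905) and with limma-voom with sample quality weights (0.291). S100a8 was called without each single library, and among the other alternatives it was lost only with limma-voom with sample quality weights (adjusted p = 0.163).

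**Figure D2:**
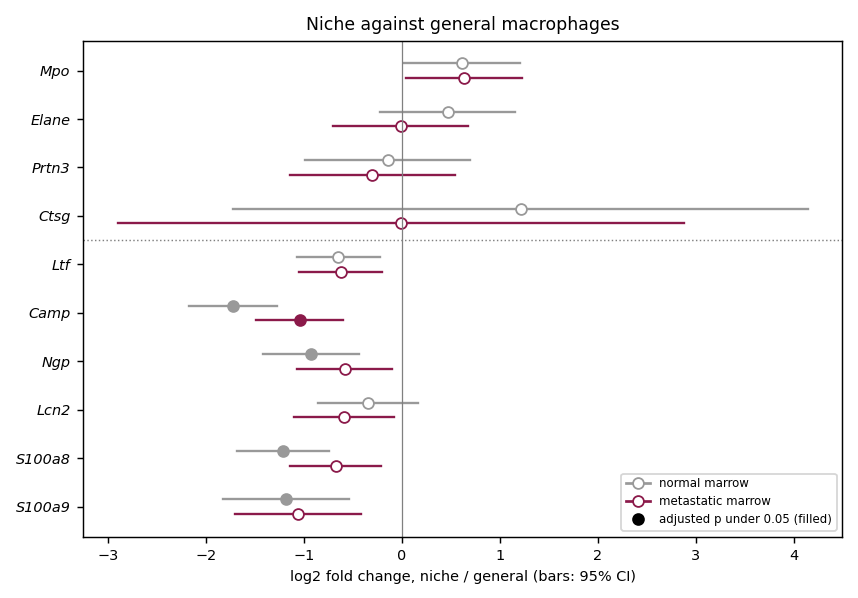
Log2 fold change of each granule gene, niche over general macrophages, in normal (grey) and metastatic (purple) marrow, with 95% intervals; filled points have an adjusted p under 0.05 (edgeR). The 6 later genes, below the dotted line, all lie left of 0 in both comparisons, with 4 filled points in normal and 1 in metastatic marrow, and the intervals of Ctsg are the widest.

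In metastatic marrow Camp was the only member called between the sorts, and it fell in niche macrophages. Of all tested genes, 0.831% were called, 0.256% lower and 0.574% higher. The 6 log2 fold changes lay between -1.06 and -0.58, with a median of -0.65, against -0.01 for the primary genes and 0.04 for all tested genes. With library totals in place of TMM factors these 3 medians were -0.40, 0.27 and 0.29. Ltf, Camp, S100a8 and S100a9 did not overlap between the groups, a pattern that 8.85% of all tested genes showed in the same direction. No member lay higher in niche libraries without overlap, as 8.34% of all tested genes did. By unadjusted p, 1 of the 4 primary and 6 of the 6 later genes were under 0.05, against 1108 of the 12882 tested genes.

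Camp measured 985, 1078 and 950.4 CPM in general-metastatic and 409, 517 and 532 CPM in niche-metastatic libraries. It was 2.07-fold lower (log2 fold change -1.05 ± 0.21, edgeR adjusted p = 0.0161). That call was lost without general-metastatic replicate 2 (edgeR adjusted p = 0.0973), without niche-metastatic replicate 1 (edgeR adjusted p = 0.113), with library totals in place of TMM factors (0.110) and with only the libraries compared in the fit (0.0652). S100a9 was at 507, 688 and 899.6 CPM in general-metastatic and at 352, 280.2 and 369 CPM in niche-metastatic libraries. Its log2 fold change, -1.06 ± 0.31, was close to that of Camp but did not pass (edgeR adjusted p = 0.179); DESeq2 called it (adjusted p = 0.0293). S100a8 was at 3033, 3215 and 1931 CPM in general and at 1534, 1652 and 1925 CPM in niche libraries, so that general-metastatic replicate 3 lay just above the highest niche value. Without that library S100a8 was called (log2 fold change -0.88, edgeR adjusted p = 0.0479).

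Ltf measured 1681, 1852 and 2707 CPM in general-metastatic and 1476, 1222 and 1341 CPM in niche-metastatic libraries (log2 fold change -0.63, edgeR adjusted p = 0.301). Ngp stood at 5178, 6896 and 11966 CPM in general-metastatic and at 5750, 5502 and 4777 CPM in niche-metastatic libraries (log2 fold change -0.58, edgeR adjusted p = 0.508). Lcn2 was at 2122, 2743 and 4169 CPM in general and at 2253, 1745 and 1974 CPM in niche libraries (log2 fold change -0.60, edgeR adjusted p = 0.523). General-metastatic replicate 3 gave the highest Ltf, Ngp, Lcn2 and S100a9 of its group and the lowest S100a8. The later genes thus did not move together within that group.

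Because each library yields both classes, the primary sum was also set against the later sum inside each library, as a description. The 4 primary genes summed to 4.88, 3.85 and 4.13% of the later sum in general-normal and 7.43, 7.67 and 4.36% in general-metastatic libraries. In niche-normal libraries they summed to 10.7, 10.6 and 11.4%, and in niche-metastatic libraries to 8.76, 16.7 and 11.1%. Every niche library lay above every general library of the same marrow, whereas the general-metastatic and general-normal ranges overlapped, as did the niche ranges. With the mean log2 CPM of each class in place of sums, the general-normal difference of primary minus later was -4.51 to -4.39 and the general-metastatic one -4.00 to -3.46, so the overlap of the general groups depended on the summary. The log2 ratio was higher in niche macrophages by 1.35 in normal and by 0.90 in metastatic marrow. The later sum was 19122 ± 492 CPM (SD, n = 3) in general-normal, 17534 ± 4650 in general-metastatic, 10361 ± 1199 in niche-normal and 11203 ± 494 in niche-metastatic libraries. The primary sum was 818 ± 82.1, 1084 ± 155, 1131 ± 130 and 1356 ± 417 CPM in the same order. Mpo and Ngp dominate these sums. For the single pair of Mpo and Camp, each per kb, the ratio was 0.0779 to 0.142 over the 6 general and 0.270 to 0.595 over the 6 niche libraries.

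**Figure D3:**
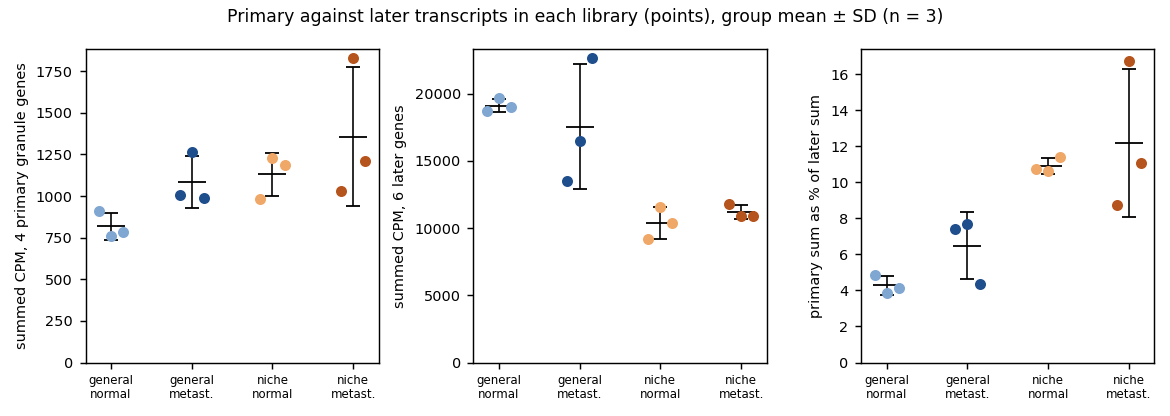
Summed CPM of the 4 primary genes (left), summed CPM of the 6 later genes (middle) and the primary sum as a percentage of the later sum (right) in each library (points), with group mean and SD (n = 3), all axes linear from 0. The niche libraries lie at 8.76 to 16.7% and the general libraries at 3.85 to 7.67%.

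Whether metastasis in the marrow moved these genes was asked within each sort, on the same 12 libraries, and each of these comparisons shares a group with those above. None of the 10 genes was called in general macrophages (edgeR), and 0 had an unadjusted p under 0.05, against 660 of the 12882 tested genes. Only 0.0155% of all tested genes were called there, and DESeq2 called 0 of the 10 and 141 genes in all. The primary genes had positive log2 fold changes in 4 of 4 cases, with a median of 0.60, against -0.21 for the later genes (-0.0805 without general-metastatic replicate 1) and -0.01 for all tested genes. Elane (0.67 ± 0.33, edgeR adjusted p = 0.944), Prtn3 (0.54 ± 0.40, edgeR adjusted p = 1) and Ctsg (1.15 ± 1.4, edgeR adjusted p = 1) did not overlap between the groups, metastatic higher, as 7.27% of all tested genes did. For Elane the general-normal libraries ended at 173 CPM and the general-metastatic libraries began at 175 CPM. Camp was the only member separated in the other direction, at 950.4 to 1078 CPM in metastatic and 1214 to 1240 CPM in normal marrow (log2 fold change -0.29, 95% interval -0.72 to 0.15), as were 5.64% of all tested genes.

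In niche macrophages none of the 10 genes was called between metastatic and normal marrow (edgeR, background 0.00776%), and 0 had an unadjusted p under 0.05, against 1642 of the 12882 tested genes. DESeq2 called 0 of the 10 and 954 genes in all. The median log2 fold change was 0.22 for the primary and 0.23 for the later genes, and -0.17 for all tested genes. With library totals these 3 medians were 0.47, 0.49 and 0.0639, and without niche-normal library A the class medians were 0.0602 and 0.0792. Ltf alone did not overlap, lower in metastatic marrow (log2 fold change -0.38 ± 0.20, edgeR adjusted p = 0.418), as 7.11% of all tested genes did, while 0 members were separated upward (5.63% of all tested genes). Camp differed by 0.39 (95% interval -0.05 to 0.83), with the niche-metastatic value of 409 CPM inside the niche-normal range.

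The difference between the 2 effects of metastasis, tested as an interaction, was not called for any member, nor for any of the tested genes (0%, edgeR). By unadjusted p, 1 of the 10 members and 1016 of the 12882 tested genes were under 0.05. The member was Camp, with an interaction of 0.68 ± 0.30 (unadjusted p = 0.0339, edgeR adjusted p = 0.615). DESeq2 called 0 members and 410 genes in all. The wide intervals, such as -0.12 to 1.19 for S100a8 and -5.33 to 2.88 for Ctsg, leave room for differences in either direction.

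**Figure D4:**
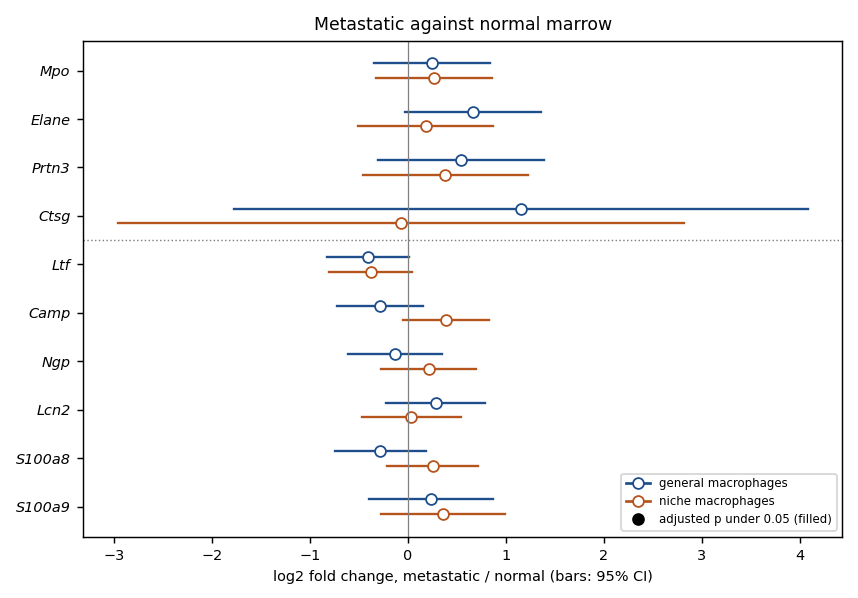
Log2 fold change of each granule gene, metastatic over normal marrow, in general (blue) and niche (orange) macrophages, with 95% intervals; no point is filled because none had an adjusted p under 0.05 (edgeR). In general macrophages the 4 primary genes, above the dotted line, lie at 0.24 to 1.15 and all intervals include 0.

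Other neutrophil genes were counted by class in the niche against general comparisons. Among 8 further primary granule genes tested, 0 were called in normal or metastatic marrow, with median log2 fold changes of 0.60 and -0.05. Ctsc, which encodes the protease that activates the granule serine proteases, had 0.66 ± 0.32 (edgeR adjusted p = 0.271) in normal marrow, Nkg7 0.75 ± 0.49 (0.416) and Serpinb1a, an inhibitor of elastase, -0.37 ± 0.27 (0.497). Among 19 further secondary and tertiary granule genes, 6 were called lower in normal and 3 in metastatic marrow, 0 were called higher, and 18 of 19 were negative in each. Their medians were -0.87 and -0.79. Lyz2, the lysozyme gene that monocytes and macrophages also express, fell by 1.43 on the log2 scale in normal marrow (edgeR adjusted p = 3.74e-05). Mmp9, a gelatinase, fell by 1.17 (edgeR adjusted p = 0.00579), and Mmp8, the neutrophil collagenase, fell by 1.23 (edgeR adjusted p = 0.00739). The same 3 genes had the smallest p in metastatic marrow, at -1.17, -1.50 and -1.59 (edgeR adjusted p = 0.000499, 0.000983 and 0.00120).

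Of 21 tested genes of the cytosol and surface of mature neutrophils, 3 were called lower in normal and 5 in metastatic marrow, 0 higher, with medians of -0.88 and -1.02. Ly6g, the surface antigen used to mark mouse neutrophils, measured 493 to 551 CPM in general-normal and 177 to 213 CPM in niche-normal libraries (log2 fold change -1.37, edgeR adjusted p = 0.0131). In metastatic marrow Ly6g stood at 244 to 417 CPM in general and 80.6 to 151 CPM in niche libraries (log2 fold change -1.55, edgeR adjusted p = 0.00917). S100a6, which encodes a calcium-binding protein, fell in normal marrow (-1.88, edgeR adjusted p = 0.0247), and Retnlg, a resistin-like gene, fell in metastatic marrow (-2.56, edgeR adjusted p = 0.0157).

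Among 9 regulators of granulocyte development, Myb (1.39 ± 0.34, edgeR adjusted p = 0.0347) and Irf8 (1.77 ± 0.46, edgeR adjusted p = 0.0478) were called higher in niche macrophages of normal marrow and 0 in metastatic marrow. None was called lower, but 6 of the 9 log2 fold changes were negative in each marrow. Their medians were -0.70 in normal and -0.10 in metastatic marrow. Myb, a regulator of progenitor growth, stood at 112 to 151 CPM in general-normal, 310 to 388 CPM in niche-normal and 90.0 to 229 CPM in niche-metastatic libraries. Irf8, which favours the monocyte over the neutrophil fate, stood at 39.4 to 60.1 CPM in general-normal and 130 to 206 CPM in niche-normal libraries. Cebpa, which encodes a C/EBP factor needed for granulocyte commitment, did not pass (edgeR adjusted p = 0.0545), with 14.7 to 26.03 CPM in general-normal and 0.1004 to 0.298 CPM in niche-normal libraries, the latter about the level of 3 counts. In the niche-metastatic libraries Cebpa stood at 11.2 to 19.8 CPM.

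Markers of other cells moved with the sorts, and their part in the granule gene results was not tested. The 9 monocyte markers summed to 4967 to 5542 CPM in general and 795 to 1206 CPM in niche libraries. In niche macrophages 6 were called lower in normal and 4 in metastatic marrow, and none was at 0 in all libraries of a group. The 8 myeloid progenitor markers summed to 582 to 803 CPM in general, 1429 to 2026 CPM in niche-normal and 1061 to 1332 CPM in niche-metastatic libraries, with Flt3 at 0 in all general-normal libraries. Cdk6 (1.42) and Myb (1.39) of that list were called higher in normal marrow and 0 in metastatic marrow. The macrophage list holds the sorting antigens Adgre1, Vcam1 and Cd163, on which the sorts were made. Of its other 9 markers, 5 were called higher in normal and 4 in metastatic marrow. Within the niche sort the whole list summed to 6548 to 7740 CPM in normal and 2546 to 5426 CPM in metastatic marrow. The macrophage and progenitor sums were thus lower in metastatic marrow there, without overlap. None of the 12 macrophage or 8 progenitor genes was called in that comparison, where 0.00776% of all tested genes were called. Sums of some other lists also separated between normal and metastatic marrow, in either sort. The 10 erythroid markers summed to 32.0 to 131 CPM in general and 704 to 1772 CPM in niche libraries. The 9 B and plasma cell markers summed to 96.4 to 229 CPM in general and 922 to 3850 CPM in niche libraries, with Vpreb3 at 0 in all general-metastatic libraries. The secondary and tertiary granule list, without the 6 later members, summed to 30265 to 40351 CPM in general and 14508 to 20084 CPM in niche libraries.

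**Figure D5:**
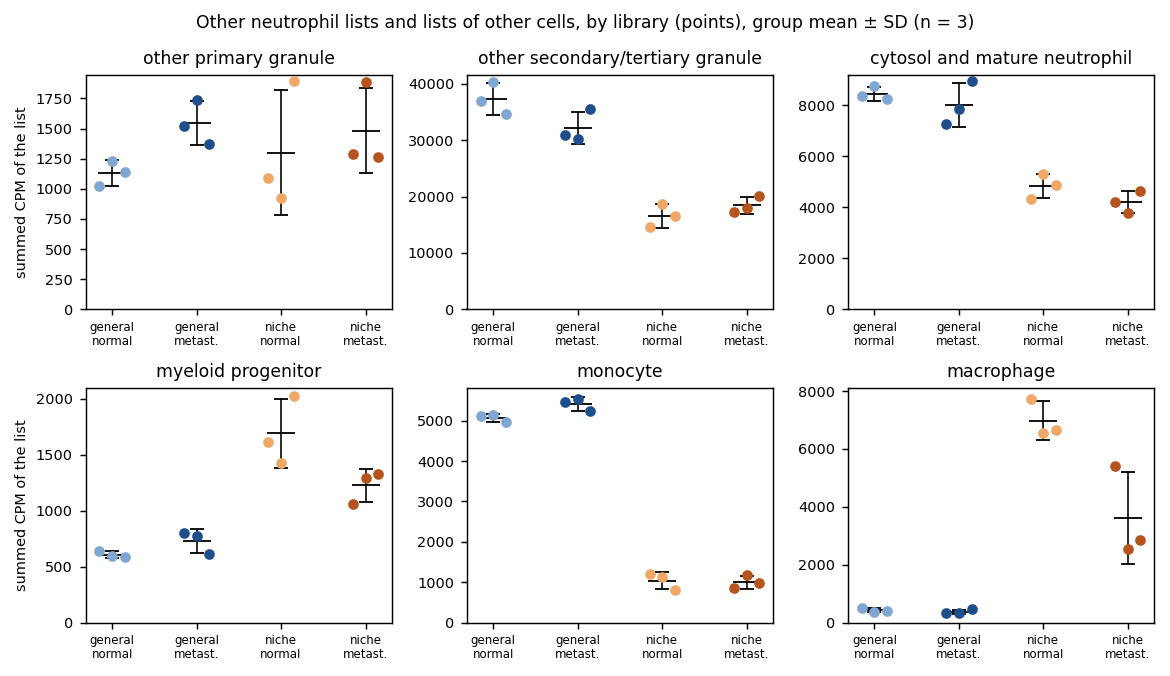
Summed CPM of 3 lists of other neutrophil genes (top) and of myeloid progenitor, monocyte and macrophage markers (bottom) in each library (points), with group mean and SD (n = 3), linear axes from 0. Niche and general libraries overlap only for the other primary granule genes, where they span 920 to 1893 and 1023 to 1741 CPM.

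Genes with profiles most like those of the members over the 12 libraries were picked among the 3503 tested genes whose mean level reached 50 CPM, as a description; the libraries share their groups, so likeness partly restates the sort. For the later class these were Cmtm6 (r = 0.96), Gnai2 (0.95), C5ar1, a receptor of complement C5a (0.94), Fn1, which encodes fibronectin and is 1 of the 9 monocyte markers (0.94), and Tmsb4x (0.94). The 6 later members themselves had r of 0.75 (Lcn2) to 0.93 (Camp) with their class profile. For the primary class they included Fam126b (0.89), Pclaf (0.89), Sdhd (0.88) and Hmmr (0.86). The primary profile was mainly that of Ctsg (r = 0.91), whereas Elane had 0.62, Mpo 0.44 and Prtn3 -0.17.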

How the data were processed

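RNA was measured in 12 libraries after depletion of ribosomal RNA, per the labels' protocols. Expected counts for each gene symbol, not normalized, were deposited by the authors as 1 table (73.9% of values exactly whole, with no tolerance). STAR 2.7.3a, Partek, DESeq2 1.40.2, R 4.3.1 and the mouse build mm10 are named in the submitters' processing notes, without their roles. The counting program, annotation and strandedness are not given in the sources used here. Both sorts are titled general macrophages, so the sorting antigens decided the population.

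Counts were rounded, filtered (filterByExpr), TMM scaled and tested by the quasi-likelihood method of edgeR 4.0.16 (R 4.3.3), with 1 mean for each of the 4 groups. Benjamini-Hochberg adjustment covered the 12882 tested genes, and an adjusted p under 0.05 is a call. The fit was also run on simulated data, but the outcome is not reported here and no result rests on it. Alternatives were RLE scaling, library totals, other filters, DESeq2 1.42.0, limma-voom with sample quality weights (limma 3.58.1), robust dispersion, fitting only the libraries compared, leaving out small non-coding RNA genes or haemoglobin, immunoglobulin and mitochondrial genes, a replicate block, and leaving out each library. CPM per kb used the summed exon length in GENCODE M21. Totals of 13687945 to 30332417 counts make counting error small for abundant genes. It is not small for genes with few counts, such as Ctsg with 3 counts in niche-normal library A. The tests weigh group differences against the spread between libraries, in which mice, sorting and library preparation cannot be told apart. No pair of libraries of a group agreed within sampling noise (chi-square per degree of freedom).

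The members and gene lists were chosen with earlier results of these data known, so no list or score was tested. Every member is named. Of each list of other neutrophil genes, the 3 with the smallest p in the comparison described are named, and for likeness the 5 genes with the largest Pearson r (log2 CPM, prior count 2) to the mean centred profile of the class. Some genes that this rule selects are not reported here.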

Additional observations from a re-analysis of the deposited data

How the results depend on the processing

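In normal marrow, 4 members were called between the sorts. That count was 2 with library totals (317 genes called in all) and 3 with only the libraries compared (163). It was 1 with limma-voom with sample quality weights (186), the form meant by limma-voom here. It was 5 with no filter on low counts (312), at least 10 counts in every library (325), DESeq2 (1825) and without small non-coding RNA genes (322). When each library was left out in turn, it was 2 to 3 (176 to 402 genes in all). In metastatic marrow 1 was called. That count was 0 with library totals (116 genes called in all) and 0 when only the libraries compared were fitted (97). It was 2 with DESeq2 (480), and 0 to 2 when each library was left out (66 to 83). The difference in log2 ratio of primary to later genes in normal marrow was 1.09 with mean log2 CPM in place of sums (1.35 with sums), a choice made after seeing the data. The cause of these changes was not tested. Library totals moved the median of all genes by 0.25 in metastatic marrow and raised the share of calls that were higher from 69.2 to 82.8%. DESeq2 called 1825 genes in normal and 480 in metastatic marrow, against 318 and 107, and limma-voom called 186 and 178.

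Some values that were not called changed sign. Niche against general: Ctsg was -0.37 in normal marrow with limma-voom. In metastatic marrow Elane was 0.0270 with RLE scaling, 0.27 with library totals, 0.000721 with at least 10 counts in every library, 0.0270 with DESeq2 and 0.0341 with limma-voom, and Ctsg was 0.0265 with RLE scaling, 0.27 with library totals and 0.0265 with DESeq2. Metastatic against normal in niche macrophages: Ctsg was 0.17 with library totals, 1.54 with limma-voom, 0.0860 with only the libraries compared and 0.0114 without small non-coding RNA genes, and Lcn2 was -0.0856 with limma-voom. Interaction: Prtn3 was 0.10 with library totals, 0.0402 with at least 10 counts and 0.25 with limma-voom, which also gave Mpo -0.0784, Ctsg 0.28 and Ltf -0.0096.

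Leaving out each library, some signs changed as well. Niche against general in normal marrow, Prtn3 ran from -0.94 to 0.21 and Ctsg from -1.001 to 1.80. In metastatic marrow Elane ran from -0.18 to 0.19 and Ctsg from -0.53 to 0.35. Metastatic against normal, Ngp ran from -0.55 to 0.11 and Lcn2 from -0.0353 to 0.49 in general macrophages, and Lcn2 from -0.18 to 0.24, Mpo from -0.12 to 0.45 and Ctsg from -0.66 to 2.14 in niche macrophages. The interaction ran from -0.37 to 0.20 for Mpo, -0.12 to 0.38 for Ltf, -0.17 to 0.49 for S100a9, -0.47 to 0.18 for Lcn2, -0.52 to 0.63 for Prtn3 and -1.82 to 0.98 for Ctsg.

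Whether the replicate numbers pair the samples could not be decided. Same-numbered libraries of 3 groups had correlations of -0.0074 to 0.0337, and others -0.0335 to 0.0140. Each gene was first centred within its group, so both sets of correlations constrain each other. With a replicate block on the 9 libraries of those 3 groups, 1 member was called between the sorts in metastatic marrow (117 genes in all). Between metastatic and normal marrow in general macrophages, 0 members were called under that block (3 genes in all). No paired analysis was possible for the niche-normal group because the numbers of its columns disagree with those of the titles.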
